A study of Mus musculus with 18 samples.

Results

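Peroxisome proliferator-activated receptor alpha (PPAR-alpha) and 6 genes of the fasting and ketone response were followed in mouse kidney. The 7 genes were Ppara, Pdk4, Angptl4, Plin2, Acot1, Vnn1 and Bdh1, found by symbol among 19542 symbols of the deposited gene table, with Plin2 standing on 2 of 19545 entries. The data are RNA sequencing of kidneys taken at 10 weeks of age from mice of the outbred ICR stock, with 6 groups and 3 libraries per group. A control group and a group on AOS alone, dosed at 10 mg/kg, had no STZ. The other 4 groups had STZ: without further treatment (STZ), together with 10 mg/kg AOS (STZ+AOS), or with a transfer labelled STZ+AOS10mg/kg-FMT (written STZ+AOS-FMT) or STZ+control-FMT. The donor names are taken here to say what the donors had received. STZ usually stands for streptozotocin, a beta cell toxin that makes rodents diabetic, and FMT for faecal microbiota transplantation; AOS is not spelled out in the labels. The series states as its purpose the effect of FMT on kidneys damaged by STZ. No dose or day of STZ, blood glucose, feeding state or sex was used here, and the labels do not say whether each sample came from another mouse, so each p-value reflects library-to-library spread that could be technical.

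PPAR-alpha is a nuclear receptor that binds fatty acids, pairs with a retinoid X receptor and switches on genes of fatty acid uptake, oxidation and ketone synthesis during fasting and in diabetes. Its response elements are direct repeats of a short half-site with a single base between them. In kidney it is found above all in the proximal tubule, a segment that burns fatty acids and also takes up and oxidises ketone bodies. Several of its targets, Pdk4 and Angptl4 among them, are also driven by glucocorticoids, by FoxO factors when insulin is low, or by hypoxia.

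Expression was given as FPKM, read counts scaled to transcript length and to the size of the library, a unit inferred from the values. The absolute depth is unknown, and the worth of 1 read differed by at most 1.18 times between libraries, of which each had 11407 to 12607 genes at 1 FPKM or more. Kidney markers were present in all 18 libraries, with 9 listed markers summing to 2316 to 4614 FPKM. Libraries did not always lie with their group. Kap, an androgen-driven transcript of the proximal tubule, was at 145522 to 150876 FPKM in controls 1 and 2 and at 15798 in control 3, and at 144830, 63552 and 14615 in STZ 1, 2 and 3. The libraries labelled control 3 and STZ 1 thus each lay nearer to the other group, here and in Acot1 and Cdkn1a. Their labels were kept, whether they were exchanged was not tested, and STZ against control is also given without them. Markers of the adrenal cortex summed to 118 to 2535 FPKM in STZ+AOS and reached 922 in 1 control library, against at most 56.9 in STZ and 2.52 in AOS and the transfer groups. Spermatid transcripts, foreign to kidney, summed to 18.2 to 74.3 FPKM in the control and STZ libraries and to at most 0.18 elsewhere. The 5 listed tubular injury markers summed to 176 to 1327 FPKM in STZ+AOS and at most 140 in any other library. In whole tissue, fewer cells of a type and less RNA per cell cannot be told apart.

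Groups were compared in limma on log2(FPKM + 1), with Benjamini-Hochberg adjusted p over all 12682 genes that reached 1 FPKM in 3 libraries and a threshold of 0.05. All 7 genes passed this filter with their main entry. The other Plin2 entry was at 0 to 0.09 FPKM and did not pass it. Log2 differences below are on the log2(FPKM + 1) scale, which understates changes of low genes.

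**Figure D1:**
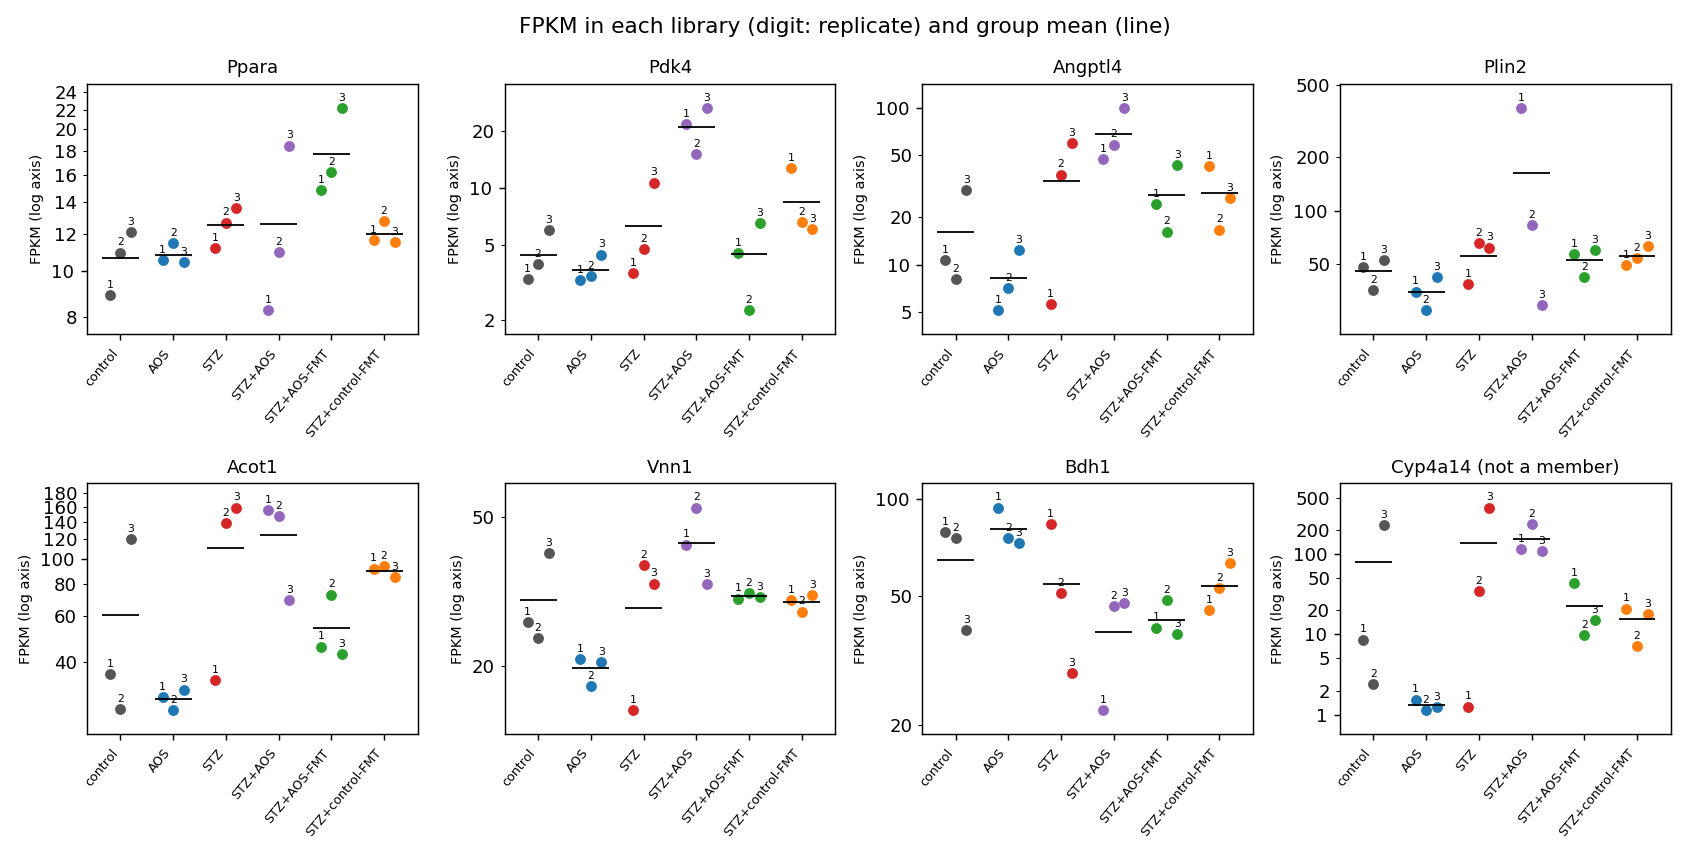
FPKM (log axis) of the 7 genes, and of the target gene Cyp4a14 for comparison, in each of the 18 libraries by group; digits give the replicate and lines the group mean (n = 3). The 3 STZ+AOS libraries lie above all others for Pdk4, whereas in Acot1 and Cyp4a14 control 3 lies nearer to STZ 2 and STZ 3, and STZ 1 to controls 1 and 2.

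The receptor Ppara (ENSMUSG00000022383; mm10 chromosome 15, 85734983 to 85802819, + strand) was expressed at a moderate level in every library. It was at 8.90, 10.96 and 12.13 FPKM in control, 10.56, 11.46 and 10.45 in AOS, and 11.22, 12.69 and 13.63 in STZ. The values in STZ+AOS were 8.28, 10.97 and 18.47 FPKM, those in STZ+AOS-FMT 14.86, 16.22 and 22.20, and those in STZ+control-FMT 11.63, 12.76 and 11.54. The STZ+AOS-FMT libraries lay above all STZ and STZ+control-FMT libraries, and STZ+AOS held both the lowest and the second-highest of the 18 values. The share of all genes separated in this way was not counted for either transfer comparison. By group mean the order was STZ+AOS-FMT (17.8 ± 3.90 FPKM, SD, n = 3), STZ+AOS (12.6 ± 5.28), STZ (12.5 ± 1.21), STZ+control-FMT (11.98 ± 0.680), AOS (10.8 ± 0.554) and control (10.7 ± 1.64). Neighbours in this order overlapped except STZ+control-FMT and AOS. No comparison of Ppara passed the test. STZ+AOS-FMT differed from STZ by 0.46 ± 0.208 (log2 difference ± SE; unadjusted p = 0.0444, limma adjusted p = 1.00) and from STZ+control-FMT by 0.51 ± 0.208 (unadjusted p = 0.0265, limma adjusted p = 1).

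Pdk4 (ENSMUSG00000019577; chromosome 6, 5483351 to 5496309, − strand) encodes a kinase that shuts off the pyruvate dehydrogenase complex and so spares glucose while fat is burned. It was the lowest of the 7 genes in control, at 3.31, 3.96 and 6.01 FPKM, and was at 3.26, 3.44 and 4.46 in AOS and 3.55, 4.79 and 10.72 in STZ. In STZ+AOS the values were 21.85, 15.08 and 26.59 FPKM, those in STZ+AOS-FMT 4.56, 2.27 and 6.57, and those in STZ+control-FMT 12.78, 6.62 and 6.08. All 3 STZ+AOS libraries exceeded all of the other 15. The mean of 21.2 ± 5.78 FPKM in STZ+AOS (SD, n = 3) was 3.33 times that of STZ (6.35 ± 3.83) and 5.69 times that of AOS (3.72 ± 0.647). Below STZ+AOS the groups stood in the order STZ+control-FMT (8.49 ± 3.72), STZ, STZ+AOS-FMT (4.47 ± 2.15), control (4.43 ± 1.41) and AOS, each overlapping the next.

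Angptl4 (ENSMUSG00000002289; chromosome 17, 33773750 to 33781830, − strand) encodes a secreted inhibitor of lipoprotein lipase, the enzyme that frees fatty acids from circulating triglyceride. It was at 10.69, 8.03 and 29.99 FPKM in control, 5.12, 7.08 and 12.42 in AOS, and 5.59, 37.50 and 59.29 in STZ. The values in STZ+AOS were 46.95, 58.39 and 100.07 FPKM, those in STZ+AOS-FMT 24.24, 16.24 and 43.25, and those in STZ+control-FMT 42.32, 16.74 and 26.47. The STZ libraries ran from near the lowest of all 18 values to the second-highest, and STZ+AOS lay wholly above AOS, control and both transfer groups but not above STZ 3. The group means fell in the order STZ+AOS (68.5 ± 28.0 FPKM, SD, n = 3), STZ (34.1 ± 27.0), STZ+control-FMT (28.5 ± 12.9), STZ+AOS-FMT (27.9 ± 13.9), control (16.2 ± 11.98) and AOS (8.21 ± 3.78), and every neighbour overlapped the next.

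Plin2 (ENSMUSG00000028494; chromosome 4, 86648386 to 86670060, − strand) encodes a coat protein of lipid droplets and is a common gauge of stored neutral lipid. It was at 48.39, 35.88 and 52.84 FPKM in control, 35.21, 27.80 and 42.69 in AOS, and 38.94, 65.72 and 62.04 in STZ. In STZ+AOS the values were 374.08, 82.57 and 29.69 FPKM, those in STZ+AOS-FMT 57.16, 42.29 and 60.10, and those in STZ+control-FMT 49.80, 54.23 and 63.52. A single library, STZ+AOS 1, stood far above the others, while STZ+AOS 3 was below every library but 1 of AOS. STZ+AOS 1 was also the library with the most Havcr1, a marker of injured proximal tubule, at 423 FPKM against 32.0 and 7.45 in STZ+AOS 2 and 3 and at most 19.4 in the other groups; the part of injury in the Plin2 value was not tested. Means were 162 ± 185 FPKM (SD, n = 3) in STZ+AOS, 55.9 ± 7.002 in STZ+control-FMT, 55.6 ± 14.5 in STZ, 53.2 ± 9.55 in STZ+AOS-FMT, 45.7 ± 8.79 in control and 35.2 ± 7.45 in AOS, all overlapping their neighbours.

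Acot1 (ENSMUSG00000072949; chromosome 12, 84009490 to 84018371, + strand) encodes a cytosolic thioesterase that splits long-chain acyl-CoA into fatty acid and coenzyme A. It was at 35.68, 26.25 and 119.81 FPKM in control, 29.14, 25.99 and 31.15 in AOS, and 33.86, 138.57 and 158.58 in STZ. The values in STZ+AOS were 155.59, 147.47 and 69.27 FPKM, those in STZ+AOS-FMT 45.79, 72.85 and 42.88, and those in STZ+control-FMT 91.88, 93.91 and 85.02. The values of control and STZ each split widely: control 3 was close to STZ 2 and 3, and STZ 1 close to controls 1 and 2. AOS was the lowest group (28.8 ± 2.60 FPKM, SD, n = 3) and lay below every other group except for control 2 at 26.25. Of its 50-base stretches, 19.2% are also found in transcripts of other genes, 13.6% in those of its chromosome 12 neighbour Acot2, so reads of these paralogs may be shared and the level of Acot1 is uncertain to that extent.

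Vnn1 (ENSMUSG00000037440; chromosome 10, 23894688 to 23905343, + strand) encodes a membrane-anchored enzyme that splits pantetheine into cysteamine and vitamin B5. It was at 26.28, 23.82 and 40.01 FPKM in control, 20.94, 17.75 and 20.55 in AOS, and 15.32, 37.16 and 33.18 in STZ. In STZ+AOS the values were 42.16, 52.88 and 33.08 FPKM, those in STZ+AOS-FMT 30.27, 31.27 and 30.53, and those in STZ+control-FMT 30.06, 27.98 and 31.01. Its range was narrow: STZ+AOS (42.7 ± 9.91, SD, n = 3) lay above both transfer groups and AOS, and AOS (19.7 ± 1.74) lay below all controls. The transfer groups were the tightest, at 30.7 ± 0.519 and 29.7 ± 1.55 FPKM.

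Bdh1 (ENSMUSG00000046598; chromosome 16, 31422280 to 31458901, + strand) encodes the mitochondrial dehydrogenase that interconverts acetoacetate and beta-hydroxybutyrate. It was at 78.89, 75.31 and 39.14 FPKM in control, 93.81, 75.49 and 73.06 in AOS, and 83.26, 51.04 and 28.93 in STZ. The values in STZ+AOS were 22.21, 46.58 and 47.42 FPKM, those in STZ+AOS-FMT 39.88, 48.45 and 38.04, and those in STZ+control-FMT 45.11, 52.97 and 63.19. Alone among the 7 genes it had its highest group mean in AOS (80.8 ± 11.3 FPKM, SD, n = 3) and its lowest in STZ+AOS (38.7 ± 14.3), with control (64.4 ± 22.0), STZ (54.4 ± 27.3), STZ+control-FMT (53.8 ± 9.07) and STZ+AOS-FMT (42.1 ± 5.56) between them. Where Acot1 was high in control 3, STZ 2 and STZ 3, Bdh1 was at 39.14, 51.04 and 28.93 FPKM, and where Acot1 was low in STZ 1, Bdh1 was at 83.26.

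**Figure D2:**
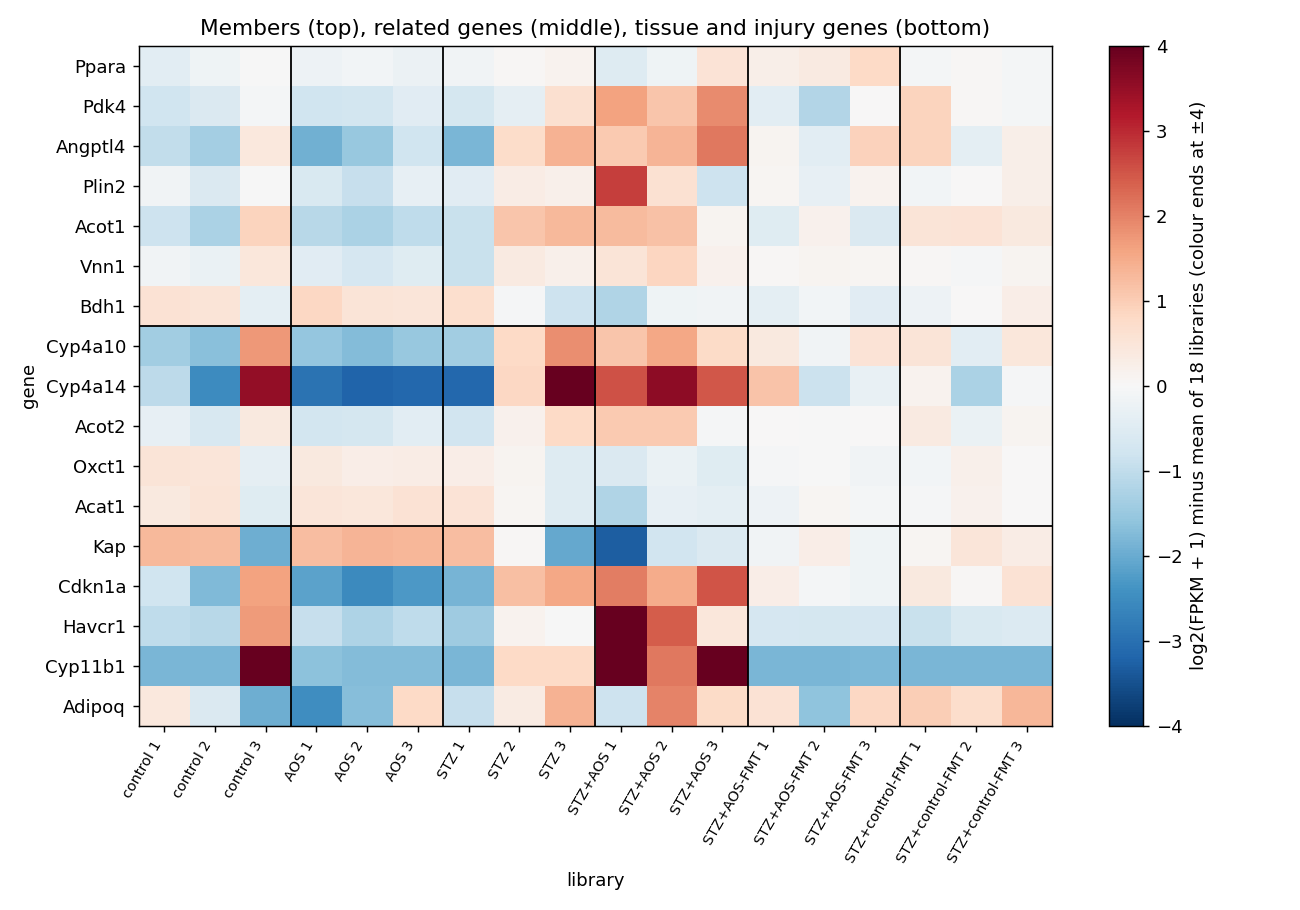
Log2(FPKM + 1) minus the mean of the 18 libraries, by colour, for the 7 genes (top rows), related genes of fatty acid and ketone metabolism (middle) and genes of tubule, growth arrest, injury, adrenal cortex and fat (bottom), with 1 column for each library. Bdh1, Oxct1, Acat1 and Kap are below their mean in control 3, STZ 3 and STZ+AOS 1, where Acot1, Cyp4a14 and Cdkn1a are above it.

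The promoters of these genes were searched for the PPAR-alpha response element, the element through which the receptor binds its targets. The search covered RefSeq promoters (GRCm38.p6) from 250 bases before to 50 after the start, 6 in all for 5 of the genes. Promoters of Angptl4 and Vnn1 were not analysed here. The direct repeat, AGGTCA followed after any 1 base by AGGTCA again, was taken as present, on either strand, where at least 10 of its 12 fixed letters matched, which held in 3.86% of 32851 promoters. Plin2 was the only one of the 5 with such a match, 10 of 12 letters starting 224 bases before the start on the strand opposite to the gene, and the AGGTCA inside it, found in 16.3% of promoters, was the only one in the 6. The best windows in the others matched 8 letters, or 9 in the other Bdh1 promoter. They are shown along the repeat so that the fit of each gene can be seen, each read on the strand that matched best and with matching letters in capitals:
Ppara: cGGTCccAcGaCA
Pdk4: AGccCAaAGtTCt
Plin2: AGGTCAggGGTCc
Acot1: AaaTCAaAGcaCA
Bdh1: AGaTCAagGGTag
Bdh1, other promoter: AGaTCAgAtGaCA
The stretch of Plin2 that holds the match is chr4:86670218-86670309 (92 bases), and that of Pdk4, the only one of the 7 called over the 6 groups, is chr6:5496310-5496528 (219 bases); both lie upstream of the annotated gene. Both are printed 5′ to 3′ on the − strand, on which the genes lie, with the best window in capitals:
Plin2: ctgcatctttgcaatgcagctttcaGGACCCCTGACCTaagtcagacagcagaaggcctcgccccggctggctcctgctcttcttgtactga
Pdk4: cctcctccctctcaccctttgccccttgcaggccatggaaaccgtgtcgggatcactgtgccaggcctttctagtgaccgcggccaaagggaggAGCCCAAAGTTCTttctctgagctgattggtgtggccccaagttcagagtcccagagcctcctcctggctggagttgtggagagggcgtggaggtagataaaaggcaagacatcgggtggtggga
The hypoxia core ACGTG, present on either strand in 19.6% of promoters, was found in that of Plin2 only, across its start. A match describes letters only, and its absence says only that these letters are not in this window.

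STZ against control gave no call among the 7 genes, nor among all 12682 genes (percent called 0%; 161 genes at an unadjusted p under 0.05, of which 0 were among the 7). The largest log2 differences were 0.89 ± 0.555 for Acot1 and 0.74 ± 0.691 for Angptl4, followed by 0.35 ± 0.371 for Pdk4, 0.26 ± 0.584 for Plin2 and 0.22 ± 0.208 for Ppara. Vnn1 was at -0.13 ± 0.261 and Bdh1 at -0.30 ± 0.354, and every limma adjusted p was 1.00. None of the 7 had groups that did not overlap, against 3.23% of all genes. Leaving out control 3 together with STZ 1, an alternative added once the values were known, made limma call 1105 genes, Acot1 (log2 difference 2.24, adjusted p = 0.00272) and Angptl4 (2.23, adjusted p = 0.0242) among them. These libraries were singled out in part by their Acot1 values, so leaving them out cannot test Acot1. Angptl4 split the same way, at 29.99 FPKM in control 3 and 5.59 in STZ 1.

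AOS without STZ likewise gave no call among the 7 genes, while 9 of all genes, 0.071%, were called, all lower. In this comparison 0 of the 7 genes had an unadjusted p under 0.05, against 521 of all genes. Vnn1 came nearest: its 3 AOS libraries lay below its 3 controls (log2 difference -0.55 ± 0.261, unadjusted p = 0.0526, limma adjusted p = 0.817). How many of all genes separated like this was not counted. Angptl4 was at -0.77 ± 0.691, Acot1 at -0.74 ± 0.555 and Bdh1 at 0.38 ± 0.354, each with overlapping groups.

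STZ+AOS was the group in which Pdk4 was highest. Adrenal cortex and injury markers were also high in this group, as given above, and their part in the Pdk4 values was not tested. Against STZ alone, Pdk4 had a log2 difference of 1.68 ± 0.371 (limma, Benjamini-Hochberg adjusted p = 0.0370), with 3 of 3 STZ+AOS libraries above all STZ libraries. It was the only 1 of the 7 genes called, against 4.53% of all genes (3.44% higher and 1.1% lower), and the only one whose groups did not overlap, which 24.3% of all genes did not. Vnn1 was at 0.63 ± 0.261 (adjusted p = 0.113 in limma), Angptl4 at 1.41 ± 0.691 (0.166), Plin2 at 0.84 ± 0.584 (0.310), Acot1 at 0.36 ± 0.555 (0.654), Bdh1 at -0.43 ± 0.354 (0.387) and Ppara at -0.06 ± 0.208 (0.848). The sign for Plin2 turned without STZ+AOS 1 (-0.12), and Angptl4 was called without STZ 3 (adjusted p = 0.0456). The call for Pdk4 was lost without STZ 1 (adjusted p = 0.193 in limma), STZ 2 (0.107), STZ+AOS 1 (0.121) or STZ+AOS 3 (0.0609). It was also lost in a fit of these groups alone (0.319) and without control 3 and STZ 1 together (0.0942). With the 3 libraries over 100 FPKM of the adrenal enzyme Cyp11b1 left out, 1 STZ+AOS library remained and the log2 difference was 1.25. The log2 difference of Pdk4 stayed between 1.23 and 2.08 under all 15 alternatives.

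Over all 6 groups at once, the F test of limma called Pdk4 (F = 9.97, adjusted p = 0.0460) and none of the other 6 genes, against 0.647% of all genes. The next were Angptl4 (F = 4.02, adjusted p = 0.107) and Acot1 (F = 3.56, adjusted p = 0.123), and Plin2 was last (F = 1.37, adjusted p = 0.428). The call for Pdk4 was kept when control 3, STZ 1, STZ 3 or STZ+AOS 2 was left out and lost without any 1 of the other 14 libraries (adjusted p of 0.0658 to 0.184). Angptl4 and Acot1 were called as well without control 3 (adjusted p = 0.0392 and 0.0256) or STZ 1 (0.0324 and 0.0378), and Vnn1 without STZ 1 (0.0355).

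The transfer of microbiota left the 7 genes without a call. Against STZ, 14 genes (0.11%) were called in STZ+AOS-FMT and 13 (0.103%) in STZ+control-FMT, all lower and none of them among the 7. Pdk4, at 21.2 FPKM with AOS given directly, was at 4.47 ± 2.15 with the transfer from AOS (log2 difference to STZ -0.39 ± 0.371) and at 8.49 ± 3.72 with the control transfer (0.42 ± 0.371). Acot1 was at -0.79 ± 0.555 and -0.01 ± 0.555, and Angptl4 at 0.11 ± 0.691 and 0.15 ± 0.691. The 2 transfers compared with each other gave no call over all genes (percent called 0%; 209 genes at an unadjusted p under 0.05, of which Ppara and Pdk4 are 2). Pdk4 was at -0.81 ± 0.371 (unadjusted p = 0.0453, limma adjusted p = 1). The Acot1 values, 42.88 to 72.85 FPKM with the AOS transfer and 85.02 to 93.91 with the control transfer, did not overlap, yet differed by -0.77 ± 0.555 with an adjusted p of 1 in limma. The share of all genes without overlap was not counted between the transfers.

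**Figure D3:**
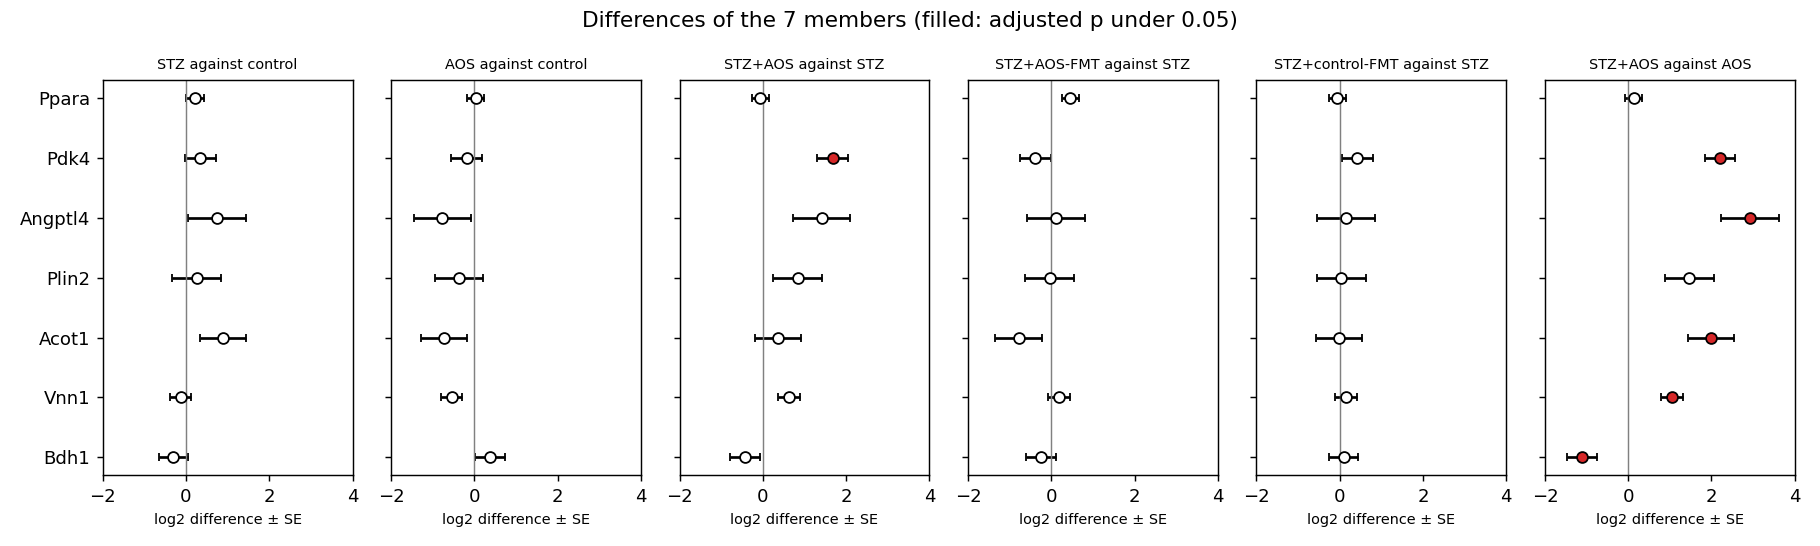
Log2 differences (log2(FPKM + 1) scale) ± SE of the 7 genes in 6 comparisons of 3 libraries with 3, fitted in limma; filled points passed an adjusted p of 0.05. Filled points are Pdk4 in STZ+AOS against STZ, and Pdk4, Angptl4, Acot1, Vnn1 and Bdh1 in STZ+AOS against AOS.

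STZ given on top of AOS, compared with AOS alone, separated most of the 7 genes. Pdk4, Angptl4, Acot1 and Vnn1 rose and Bdh1 fell, in 3 of 3 libraries each without overlap. The log2 differences were 2.21 ± 0.371 for Pdk4 (adjusted p = 0.00590, limma), 2.92 ± 0.691 for Angptl4 (0.00811), 1.99 ± 0.555 for Acot1 (0.0135), 1.05 ± 0.261 for Vnn1 (0.00896) and -1.11 ± 0.354 for Bdh1 (0.0224). In FPKM this was 8.34 times the AOS mean for Angptl4, 4.32 for Acot1 and 2.16 for Vnn1. Plin2 was at 1.47 ± 0.584 (adjusted p = 0.0515) and Ppara at 0.13 ± 0.208 (0.612), the latter at -0.19 or -0.22 under the other scalings. This comparison called 46.5% of all genes (39.3% higher and 7.18% lower), and 59.4% of all genes had groups that did not overlap, so 5 of 7 is read against that background. It shares the STZ+AOS libraries with the comparison to STZ.

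The median gene stood 0.29 higher in STZ+AOS than in AOS on the log2 scale, and -0.01 or -0.03 after median-of-ratios or quantile scaling, under which 1682 of 4181 and 1407 of 3358 called genes were higher in place of 4985 of 5895. All 5 calls among the 7 genes held under both scalings. Without STZ+AOS 3, Plin2 was called too (adjusted p = 0.0112), and without AOS 1 or STZ+AOS 1 Bdh1 was not (0.0672 and 0.106, limma).

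The interaction, which asks whether AOS acted differently in STZ-treated mice than in mice without STZ, called none of the 12682 genes (percent called 0%; 4240 genes and 3 of the 7 at an unadjusted p under 0.05). Pdk4 was at 1.86 ± 0.525 (limma adjusted p = 0.0771), Vnn1 at 1.18 ± 0.369 (0.0797) and Angptl4 at 2.18 ± 0.977 (0.138). All 3 were called without STZ 3 (adjusted p = 0.0250, 0.0313 and 0.0453 in that order), and Pdk4 without STZ+AOS 2 (0.0445).

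Markers of another tissue moved with these groups. The sum of 8 adrenal cortex markers was 118 to 2535 FPKM in STZ+AOS and 1.89 to 2.22 in AOS, and of 5 chromaffin markers 7.84 to 167 against 0.04 to 0.16. Cyp11b1, an enzyme of glucocorticoid synthesis in the adrenal cortex, had 316, 14.3 and 276 FPKM in STZ+AOS 1, 2 and 3 and 118 in control 3. Tubule markers were lower beside Bdh1: the sum of 10 proximal tubule markers was 2414 to 3424 FPKM in STZ+AOS against 4918 to 5092 in AOS, that of 5 androgen-responsive tubule markers 6433 to 41566 against 145799 to 156318, and that of the 9 kidney markers 2316 to 3440 against 3989 to 4393, none overlapping. Fat markers overlapped between the groups (8 genes, 255 to 1465 FPKM against 112 to 587), hepatocyte markers summed to at most 57.5 FPKM and skeletal muscle markers to at most 1.83, with Myh4 at 0 in STZ+AOS. In STZ+AOS 2, with the least Cyp11b1 of the 3, Pdk4 was at its lowest for the group, 15.08 FPKM, though above all other groups, and Acot1 was at 147.47 FPKM, between 155.59 in STZ+AOS 1 and 69.27 in STZ+AOS 3, both high in Cyp11b1. With the 3 libraries over 100 FPKM of Cyp11b1 left out, 1 STZ+AOS library remained, assumed to vary like the other groups. Against AOS, this 1 library gave log2 differences of 1.78 for Pdk4 (adjusted p = 0.0542 in limma), 2.77 for Angptl4 (0.0694), 2.32 for Acot1 (0.0511) and -0.77 for Bdh1 (0.161), which were no longer called, and of 1.38 for Vnn1 (0.0461) and 1.23 for Plin2 (0.0461), which were. The sign of all 6 was that of the full comparison, with fewer libraries behind each value. Pdk4 against STZ was at 1.25 (adjusted p = 0.291). The part of adrenal and tubule cells in the differences was not tested.

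Other PPAR-alpha target genes were read in the same comparison. Of 40 listed targets beside the 7 genes, 37 could be tested, and against AOS 13 rose and 4 fell in STZ+AOS, a share close to that of all genes (39.3% higher and 7.18% lower), with a median log2 difference of 0.24 against 0.29 over all genes. The split depended on scaling: it was 5 higher and 10 lower after median-of-ratios and 9 higher and 2 lower after quantile scaling. The Cyp4a family of microsomal fatty acid omega-hydroxylases moved both ways. The largest rises were of Cyp4a14 (5.97 ± 1.53, adjusted p = 0.00986, limma), Cyp4a10 (2.74 ± 0.790, 0.0152) and Cyp4a12b (2.20 ± 0.520, 0.00809), and the largest fall was of Cyp4a12a (-1.73 ± 0.633, 0.0378), at 129.26, 148.78 and 148.38 FPKM in STZ+AOS against 502.4, 513.45 and 410.66 in AOS. The mitochondrial thioesterase Acot2, whose transcript shares 24.5% of its 50-base stretches with Acot1, rose by 1.29 ± 0.366 (0.0143; 0.0564 without STZ+AOS 1). In STZ+AOS, Cyp4a14 reached 115.64, 233.92 and 109.13 FPKM, and in AOS 1.54, 1.15 and 1.23. It was at 8.56, 2.42 and 227.2 in control and 1.26, 34.02 and 375.04 in STZ, so that control 3 lay with STZ+AOS here as it did for Acot1. In carnitine-dependent fatty acid import, the carrier Slc25a20 rose (0.63 ± 0.208, adjusted p = 0.0256 in limma). The rate-setting enzyme Cpt1a (0.24 ± 0.161, adjusted p = 0.230) and Cpt2 (0.12 ± 0.161, 0.529) did not pass the test. Among enzymes of mitochondrial oxidation, Hadha (0.64 ± 0.163, 0.00943), Hadhb (0.41 ± 0.119, 0.0150), Acaa2 and Eci1 rose. Acadm (-0.49 ± 0.228, 0.0853), Acadl and Acadvl did not pass the test. In STZ+AOS against STZ, and in STZ or AOS against control, 0 of the 37 were called.

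Of 9 genes listed for ketone synthesis, transport and use, 6 fell in STZ+AOS against AOS (median -0.47), against 7.18% of all genes. The 6 include Aacs (-1.54 ± 0.422, adjusted p = 0.0125 in limma) and Hmgcs1 (-0.63 ± 0.211, 0.0273), cytosolic enzymes of lipid and sterol synthesis. Proximal tubule markers were also lower in STZ+AOS, as given above, and their part in these values was not tested. Enzymes that fell like Bdh1 were Oxct1, which activates acetoacetate for oxidation (-0.76 ± 0.213, adjusted p = 0.0136), Acat1, the thiolase that follows it (-1.14 ± 0.283, 0.00906), and the cytosolic dehydrogenase Bdh2 (-0.47 ± 0.104, 0.00711). The Oxct1 values, 258.5, 322.1 and 276.33 FPKM in STZ+AOS against 512.5, 465.89 and 471.96 in AOS, did not overlap. The 3 of the list that stood higher were the transporters Slc16a1 (0.37 ± 0.235, adjusted p = 0.198 in limma), Slc16a6 (0.41 ± 0.211, 0.121) and Slc16a7 (0.70 ± 0.341, 0.0987). None of these transporters passed the test. After either other scaling, 6 of the 9 were also called lower. None of the 9 was called in STZ+AOS against STZ or in STZ or AOS against control.

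Around the receptor, 8 of 17 partners and coregulators rose and 0 fell in STZ+AOS against AOS, against 39.3% of all genes higher and a median of 0.33 against 0.29, and after the other scalings 2 rose, or 0 rose and 1 fell. Its partner Rxra was at 0.06 ± 0.161 (adjusted p = 0.760, limma). In STZ+AOS against STZ the coactivator Crebbp rose (0.48 ± 0.122, adjusted p = 0.0479, limma), a call that was lost without STZ 1 or 2 or STZ+AOS 1 or 3 (adjusted p up to 0.224) and after either other scaling (0.0787 after median-of-ratios and 0.333 after quantile scaling). Of the related receptors, Pparg rose against AOS (1.26 ± 0.381, adjusted p = 0.0180 in limma), a call not kept under the scaling after which 0 of the 17 rose. Ppard, at 54.7, 61.63 and 9.47 FPKM in control, 29.36, 16.4 and 27.74 in AOS, 34.25, 9.68 and 6.91 in STZ and 5.62 to 11.01 in the other groups, passed the test neither in STZ+AOS against AOS (-1.15 ± 0.579, adjusted p = 0.109) nor in STZ against control (-1.21 ± 0.579, adjusted p = 1.00).

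Beside Pdk4, the 12 genes of the pyruvate dehydrogenase complex, its kinases and pyruvate import divided into 2 that rose and 2 that fell against AOS. Of all genes 39.3% rose and 7.18% fell, and the list median was -0.10 against 0.29. In STZ+AOS against STZ, only Mpc1 of the 12 was called (-0.44 ± 0.108, adjusted p = 0.0474 in limma), against 1.1% of all genes lower. That call was lost after quantile scaling (0.111) and without STZ 1 (0.218), among others. The phosphatase Pdp1 (0.87 ± 0.227, adjusted p = 0.0106, limma) and the kinase Pdk1 (0.80 ± 0.315, 0.04995) rose, and the pyruvate carrier subunit Mpc1 (-0.52 ± 0.108, 0.00640) and the kinase Pdk3 (-1.05 ± 0.322, 0.0191) fell. Pdk2, the most abundant of the kinases at 114 to 223 FPKM over the 18 libraries, did not pass the test (0.16 ± 0.197, adjusted p = 0.503).

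Around Angptl4, 4 of 8 genes of lipoprotein lipase and its regulators rose against AOS, and 0 fell (median 1.10), against 39.3% and 7.18% of all genes. Gpihbp1, which anchors the lipase to capillaries, had 31.97, 26.76 and 34.4 FPKM in STZ+AOS against 11.04, 6.75 and 8.10 in AOS (1.75 ± 0.281, adjusted p = 0.00590, limma) and kept its call under all 15 alternatives. The lipase itself, Lpl, was at -1.14 ± 0.552 (adjusted p = 0.0984). Endothelial markers moved as well, with 4 markers summing to 111 to 142 FPKM in STZ+AOS and 56.8 to 72.5 in AOS; their part in the Gpihbp1 value was not tested.

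Around Plin2, 7 of 16 lipid droplet genes rose and 2 fell (median 0.62), near the 39.3% higher and 7.18% lower of all genes, or 1 rose and 2 fell after median-of-ratios and 2 and 2 after quantile scaling. Hilpda, an inhibitor of droplet lipolysis, rose by 0.81 ± 0.204 (adjusted p = 0.00928, limma) and Cideb, a droplet and lipoprotein assembly factor, fell (-0.76 ± 0.126, 0.00590). In STZ+AOS against STZ, only Cideb of the 16 was called (-0.52 ± 0.126, adjusted p = 0.0455 in limma), against 1.1% of all genes lower. That Cideb call was lost after quantile scaling (0.0953) and without STZ 1 (0.216), among others. Of the coat proteins related to Plin2, Plin1 (1.73 ± 0.62, adjusted p = 0.0354 in limma) and Plin3 (0.66 ± 0.226, 0.0298) rose against AOS. Plin4 and Plin5 did not pass the test (adjusted p = 0.1497 and 0.113). For Vnn1, the relative Vnn3 was at 0 to 0.17 FPKM and was not tested, and of 7 genes of pantetheine and coenzyme A 1 rose and 1 fell, the latter being Coasy, which makes coenzyme A (-0.92 ± 0.230, adjusted p = 0.00915).

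Glucocorticoid and FoxO targets, which share Pdk4 and Angptl4 with PPAR-alpha, rose in 10 of 18 and fell in 1 against AOS, where 39.3% of all genes rose and 7.18% fell (median 0.85; 6 and 1 after median-of-ratios, 4 and 0 after quantile scaling). Examples were the kinase Sgk1 (2.27 ± 0.513, adjusted p = 0.00738, limma), the stress-induced Ddit4 (2.20 ± 0.558, 0.00959) and the insulin receptor substrate Irs2 (1.69 ± 0.410, 0.00851). Among those not called were Fkbp5 (0.76 ± 0.344, adjusted p = 0.0796 in limma), Tsc22d3 (0.95 ± 0.422, 0.0759), Klf9 (0.48 ± 0.215, 0.0789) and Pck1 (0.41 ± 0.651, 0.608). The 1 that fell was G6pc (-1.10 ± 0.430, 0.0490). Of 10 hypoxia targets 4 rose, as did 39.3% of all genes, and 0 fell (median 0.55; 3 and 1, or 2 and 0, after the other scalings), among them Adm (1.33 ± 0.259, 0.00596) and the glucose transporter Slc2a1 (0.99 ± 0.249, 0.00943). None of either list was called against STZ. Of the 63 genes of all lists that were called against AOS, 33 to 62 kept the call under a single change of scaling, pseudocount, filter, fit or library, and 7 with the 3 libraries high in Cyp11b1 left out, where 1 STZ+AOS library remained and all 63 kept their sign.

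**Figure D4:**
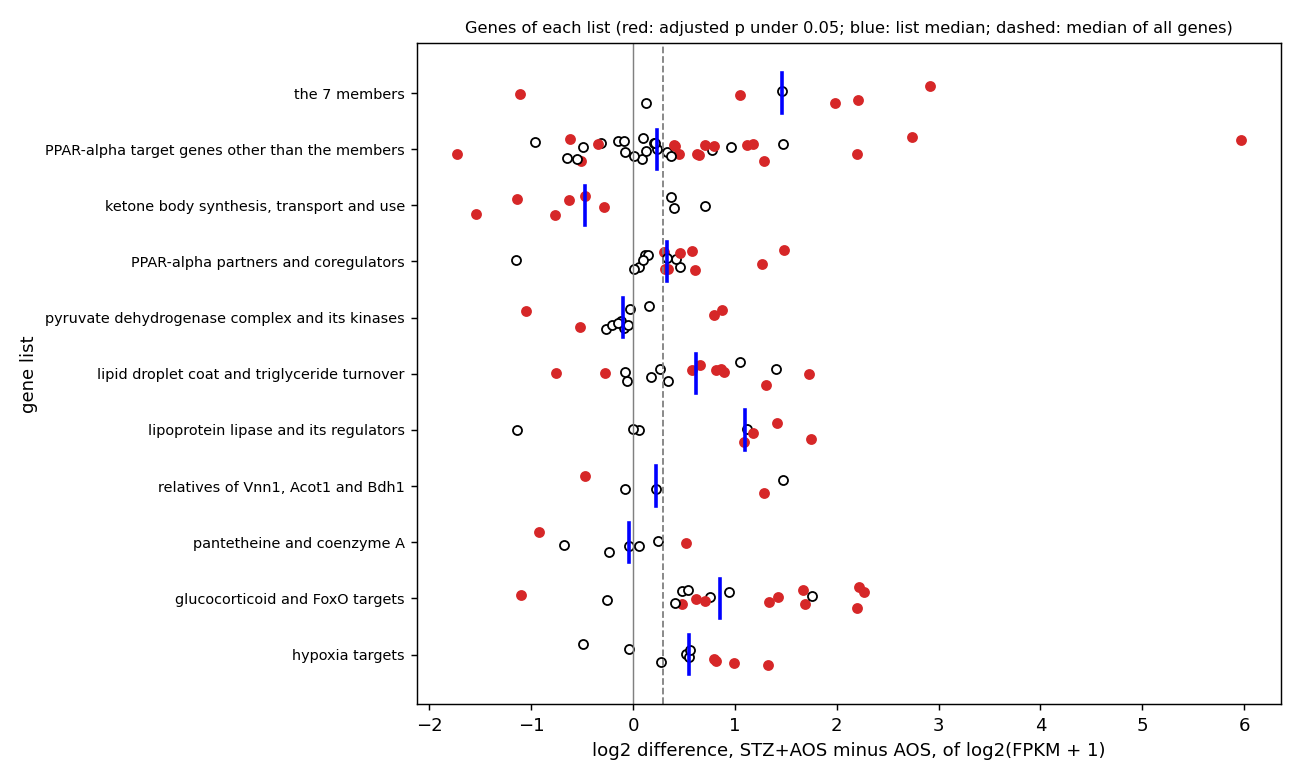
Log2 differences (log2(FPKM + 1) scale) between STZ+AOS and AOS for the 7 genes and for each gene of the related lists, red where the adjusted p in limma was under 0.05; the blue line is the list median and the dashed line the median of all genes, 0.29. The 7 genes have a median of 1.47, and the ketone list, which includes Aacs and Hmgcs1, has a median of -0.47.

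The genes whose log2 values followed each member most closely over the 18 libraries were found among 11717 genes, as a description, since the libraries share group and tissue makeup. For Bdh1 they were C1qtnf3 (Pearson r = 0.970), the proximal tubule peptidase Ace (0.962) and the organic anion transporter Slc22a7 (0.959). For Acot1 they were Sulf2 (0.937), Aprt (0.930) and Phlda3 (0.930), for Angptl4 Sun2 (0.952), and for Vnn1 Kctd9 (0.941). The likeness for Pdk4 was to Ddx19a (0.924), for Plin2 to Cad (0.942) and for Ppara to Fmo2 (0.873). Within groups, after each group mean was taken away, r was 0.974 for Bdh1 with C1qtnf3, 0.951 for Acot1 with Sulf2, 0.829 for Pdk4 with Ddx19a and 0.935 for Ppara with Fmo2. Plin2 and Cad share 1 far library, STZ+AOS 1, where Plin2 was at 374.08 FPKM and Cad at its highest, 4.02.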

How the data were processed

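The deposited table holds 1 value per gene and library, without a named unit. Value times gene length summed to nearly the same total in each library (coefficient of variation 0.941%, against 5.47% for the plain sum), so the authors' values were read as FPKM. Bowtie 0.12.2 and mm10 are listed per the submitters' processing notes; which tool counted reads, over which annotation, is not given in the sources used here. Each of the 18 columns was matched to its sample by title and description.

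Values were put on the log2 scale after a pseudocount of 1 and fitted for all 18 libraries in limma 3.58.1 (R 4.3.3), with 1 mean per group, a trend and the robust option. Genes at 1 FPKM in at least 3 libraries were kept. The fit was tested on simulated data with independent normal noise and the same spread in every group. That setting does not cover the uneven spreads seen here, such as Plin2 SDs of 185 FPKM in STZ+AOS and 7.45 in AOS. Gene models are from GENCODE M21 (mm10), promoters from RefSeq. All 7 genes were named in full; listed genes could be named where called, otherwise by mean level, and not all called ones are named. Of the lists, 2 genes are not reported here and are in no list count. The members and lists were chosen with earlier results of these data known. An exact permutation test of 3 against 3 was not used.

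Alternatives were 2 scalings, 2 pseudocounts, no filter, the replicate number as a block, the compared groups alone and each library left out; 2 further sets of libraries were left out after the data were seen.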

Additional observations from a re-analysis of the deposited data

How the results depend on the processing

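Directions among the 7 genes turned in a few comparisons, none of them past the threshold. Ppara in STZ+AOS against AOS was at -0.19 after median-of-ratios and -0.22 after quantile scaling, and between -0.16 and 0.37 with a library left out; coregulators that turned were Rxrb (-0.029, median-of-ratios), Med1 (-0.034) and Ncoa1 (-0.098, both quantile). With each library left out, STZ against control spanned -0.049 to 0.63 for Pdk4, -0.36 to 0.25 for Vnn1 and -0.66 to 0.082 for Bdh1, and STZ+AOS against STZ spanned -0.35 to 0.18 for Ppara, -0.12 to 1.68 for Plin2 and -0.34 to 0.76 for Acot1. Without control 3 and STZ 1, Vnn1 was at 0.47 in STZ against control and Acot1 at -0.34 in STZ+AOS against STZ. Without the 3 libraries high in Cyp11b1, Vnn1 was at 0.091 in STZ against control. The cause of these changes was not tested. Of the 7 genes, the number called in STZ+AOS against STZ was 1, and it was 0 to 2 with a library left out and 0 with the compared groups alone, without control 3 and STZ 1, or without the Cyp11b1-high libraries. Over the 6 groups it was 1, and 0 to 4 with a library left out, 0 at a pseudocount of 0.1 or without the Cyp11b1-high libraries, and 5 without control 3 and STZ 1. The interaction gave 0 to 3 with a library left out. STZ against control gave 2 without control 3 and STZ 1, libraries singled out in part by their Acot1 values. In STZ+AOS against AOS, 1 STZ+AOS library remained without the Cyp11b1-high libraries, and Pdk4, Angptl4 and Acot1 were at 1.78, 2.77 and 2.32. Counts over all genes moved more. STZ+AOS against STZ called 575 genes, and 128 after quantile scaling, 242 and 952 at pseudocounts of 0.1 and 5, 1126 without the filter, 0 with these groups alone, 20 without control 3 and STZ 1, 10 without the Cyp11b1-high libraries, and 11 to 3349 with a library left out. STZ+AOS against AOS called 5895, then 3358 (quantile) and 746 (without the Cyp11b1-high libraries). The 6 groups called 82, and 283, 133, 212 and 544 with median-of-ratios, quantile, a pseudocount of 5 and no filter, 5393 and 19 without the 2 sets of libraries, and 15 to 3614 with a library left out. The interaction called 0 to 3044 with a library left out. AOS against control called 9, and 1 to 40; the transfers against STZ called 14 and 13, and 179 and 163 without the filter. Replicate numbers were not taken as pairs of samples. Same-numbered libraries of different groups had deviations correlated above 0.1 in 15 of 45 pairs (r of -0.258 to 0.667). The closest were control 3 with STZ 3 (0.667) and control 1 with STZ 1 (0.544), whereas control 2 with STZ 2 was at -0.16. Whether same-numbered libraries share a source was not tested. With the replicate block, 1116 genes were called in STZ+AOS against STZ and 548 over the 6 groups, the number of the 7 genes called changed in none of the comparisons, and Pdk4 against STZ had a limma adjusted p of 0.0245. With 3 libraries a group and unknown depth, counting error could not be separated from other spread.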
